A study of Macaca mulatta with 22 samples.

Results

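The comparison set 2 single 8-cell embryos (8C) against 3 single morulae (Mo) of the rhesus macaque (Macaca mulatta). These 5 libraries were taken by their stage labels from a series of 22 libraries of single oocytes and embryos at 9 stages, and all entries of the expression table with at least 1 RPKM (reads per kilobase of transcript, scaled to the depth of the library) in at least 2 of the 22 libraries were tested, 14312 of 35468. Per the labels, every embryo of both stages came from intracytoplasmic sperm injection followed by culture in vitro, and the groups carry no other treatment. The labels name no genotype, animal, donor, sex or embryo grade, so no p-value can speak for variation among animals or donors. The p-values of the main fit only reflect how single oocytes and embryos varied within stages. Their spread was pooled over all 22 libraries. Each library is 1 whole embryo, in which a transcript held by fewer cells and less of it in every cell cannot be told apart.

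As background, early primate embryos first live on mRNA and protein stored by the oocyte, and the major wave of transcription from the embryonic genome begins around the 8-cell stage. PRD-like homeobox genes such as DUXA and LEUTX, ZSCAN4, and many members of the TRIM, RFPL and PRAME families are known for short expression at that wave, while the remaining oocyte transcripts are degraded. The morula is the stage at which blastomeres compact, acquire polarity and begin to separate into outer trophectoderm and inner cell mass.

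Estimated depth was 20.44 and 5.53 M reads in 8C replicates 1 and 2, and 15.7, 19.85 and 17.47 M in Mo replicates 1 to 3. The 8C libraries held 9497 and 9352 entries at 1 RPKM or more, Mo replicates 1 and 3 held 7262 and 6763, and Mo replicate 2 held 4277. Across tested entries on the log2 scale, Mo replicates 1 and 3 correlated with each other at 0.952, while Mo replicate 2 correlated with them at 0.740 and 0.745, and the 8C pair at 0.836. Mo replicate 2 alone was listed at 0 for 1859 entries that were above 0 in the other 4 libraries, and 512 of those were called lower at Mo. Its depth was the highest of the 3 morulae. What sets this embryo or library apart was not tested, and results that turn on it are given with and without it.

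Far more genes fell than rose between the stages. With limma on log2(RPKM + 1), 2865 entries (20.0% of those tested) were lower at Mo and 771 (5.39%) were higher at an adjusted p under 0.05. Without Mo replicate 2 the calls were 2574 lower (18.0%) and 1143 higher (7.99%), of which 2333 and 602 were calls with all libraries too. The spread behind these calls was pooled over all 9 stages, and it weighs heavily. In a fit of the 8C and Mo libraries alone the calls were 1159 lower (8.1%) and 88 higher (0.615%). With entries at 0 in all of these libraries left out of that fit, 13612 remained and 0 were called in either direction. Over the 9264 entries with 1 RPKM or more in 2 of them, 1443 were lower (15.6%) and 128 higher (1.38%). Counts given below for the fit of the 2 stages alone come from its first form and turn on which entries are kept. After median-of-ratios scaling 19.7% of entries were lower and 8.79% higher. Leaving out 8C replicate 1, 8C replicate 2, Mo replicate 1 or Mo replicate 3 gave 17.4%, 18.6%, 20.6% and 19.0% lower, and 4.5%, 3.09%, 5.62% and 5.12% higher, in that order. The median log2 change of all tested entries was -0.38, or -0.27 without Mo replicate 2 and -0.25 after median-of-ratios scaling, so a change near that size cannot be told from the shift of the whole table. Every log2 change below is Mo minus 8C after adding 1 RPKM, which makes changes of low genes look smaller than they are.

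In blastocysts the median level of the entries that fell was below that of the entries that rose. Over the 2865 lower entries the median of the stage means was 6.83 RPKM at 8C, 0.357 at Mo and 0.891 at the blastocyst (n = 2), and 1496 of them (52.2%) averaged under 1 RPKM in blastocysts. Over the 771 higher entries the medians were 4.57 at 8C, 38.1 at Mo and 27.4 at the blastocyst, and 47 (6.10%) averaged under 1 RPKM there. Of the lower entries, 207 averaged at least their 8C mean again in blastocysts. The share of all tested entries under 1 RPKM in blastocysts was not computed, so neither share can be set against the whole table. The 8C and Mo medians follow from the choice of called entries and are given as a description.

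Transcripts from the oocyte and transcripts first seen at or after the 8-cell stage both took part in the fall. Of 6824 entries with at least 1 RPKM in every MII oocyte library, 1665 (24.4%) fell and 469 (6.87%) rose, with a median log2 change of -0.61. Of 920 entries under 0.5 RPKM in all 15 libraries from the germinal vesicle oocyte to the 4-cell embryo, 327 (35.5%) fell and 74 (8.04%) rose, with a median of -0.48. Over all tested entries 20.0% fell and 5.39% rose, with a median of -0.38, so the oocyte class lay near the whole table. Of the 6568 entries in neither class 13.3% fell and 3.47% rose, with a median of -0.22. The second class reached the test only through 8C, Mo or blastocyst libraries, so its share says nothing about all silent genes. Near-complete switches ran in the same direction: 139 entries had at least 10 RPKM in both 8C libraries and under 1 RPKM in all 3 morulae, while 14 had the reverse. Without Mo replicate 2 these counts were 145 and 26.

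**Figure D1:**
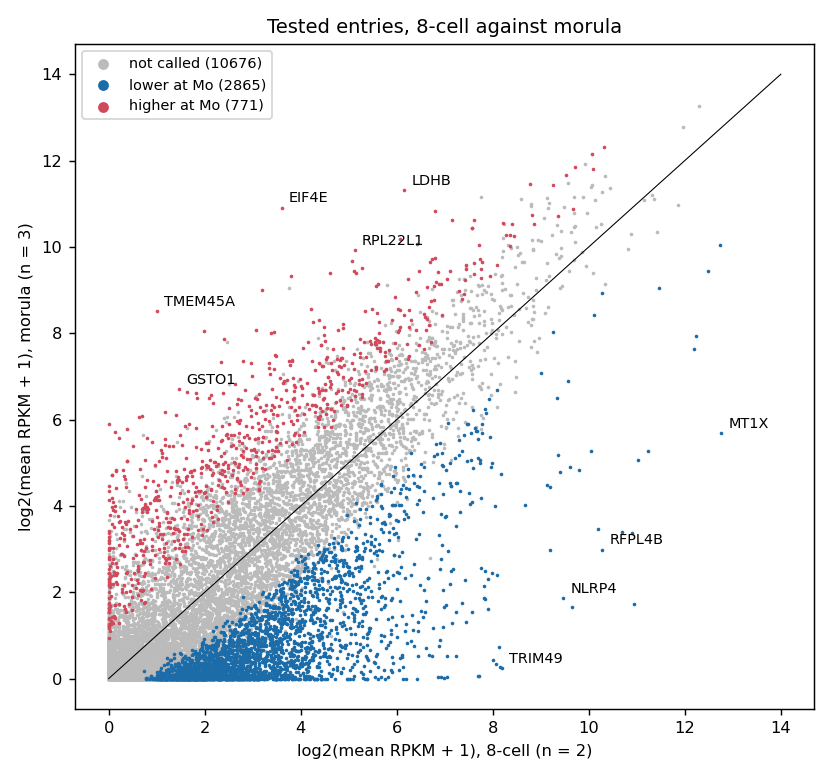
Mean level of each tested entry at 8C (x axis, n = 2) and at Mo (y axis, n = 3), both as log2(mean RPKM + 1), coloured by the limma call, with the diagonal as a line. The 2865 entries called lower lie below the diagonal and include a group near 0 at Mo, and the 771 called higher lie above it.

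The genome activation list split into genes that had left the morula and genes that were still there. Of its 39 symbols 18 had an entry, all of them tested, and 9 fell (50.0%, beside 20.0% of all tested entries) while none rose. The list median was -2.23 beside -0.38 for all tested entries. The same counts, 9 and 0, came without each of the 5 libraries in turn, and 7 fell in the fit of the 2 stages alone. The fit of the 2 stages alone called 8.1% of all tested entries lower. RFPL4B, a member of the ret finger protein-like family, was 1181 and 1293 RPKM in the 8C libraries and 13.2, 0.249 and 7.41 in the morulae, a log2 change of -7.87 ± 0.74 (SE; limma adjusted p = 2.36e-07). LEUTX (IMMRNTR1244), a PRD-like homeobox activator, was 805 and 1528 RPKM at 8C and 23.6, 0.170 and 6.4 at Mo (-7.54 ± 0.87, limma adjusted p = 3.07e-06). For both genes every morula lay far below both 8C libraries, and Mo replicate 2 was the lowest.

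The other members that fell were lower at the 8-cell stage to begin with, but ended as near to 0. KLF17, a Krüppel-like transcription factor, was 52.4 and 31.5 RPKM at 8C and 1.93, 0.0800 and 1.71 at Mo (-4.35 ± 0.36, limma adjusted p = 5.36e-08). SLC34A2, a sodium-phosphate cotransporter, was 31.1 and 60.5 RPKM at 8C, 0.0720 in Mo replicate 1 and listed at 0 in the others. The histone demethylase KDM4E (IMMRNTR844) was 13.5 and 21.8 RPKM at 8C, 0.0660 in Mo replicate 1 and listed at 0 in the others. In these 3 genes no morula came near an 8C library. PRAMEF10 and PRAMEF12 of the PRAME family, TRIM49 and RFPL1 were the remaining members that fell. RFPL1 was the least uniform, at 29.0 and 10.5 RPKM at 8C and 0.424, 5.65 and 0.0550 at Mo.

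The PRD-like genes DUXA, DPRX and ARGFX were not called and stayed high in every morula. DUXA was 4272 and 3172 RPKM at 8C and 3571, 565 and 1923 at Mo (-1.23 ± 0.75, limma adjusted p = 0.26). DPRX (IMMRNTR1323) was 2381 and 2690.4 RPKM at 8C and 3954, 1148 and 1943 at Mo. ARGFX was 1216 and 435 RPKM at 8C and 2499, 479.5 and 2322 at Mo (0.95 ± 0.87, limma adjusted p = 0.481). The stages overlapped for all 3 genes, and Mo replicate 2 was the lowest morula for each. ZSCAN4, a zinc finger gene of the activation wave, was 728 and 361 RPKM at 8C and 550.1, 283 and 235 at Mo. KHDC1L was 2215 and 3280.2 RPKM at 8C and 1617, 627 and 1638 at Mo. CCNA1, ZIM3 and TRIM60 were also above 80 RPKM in every library of both stages and not called, and ALPG (IMMRNTR4292), the last member, was under 1 RPKM in all 5 and not called. By the blastocyst DUXA averaged 36 RPKM and ZSCAN4 9.03, while ARGFX still averaged 355.5.

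**Figure D2:**
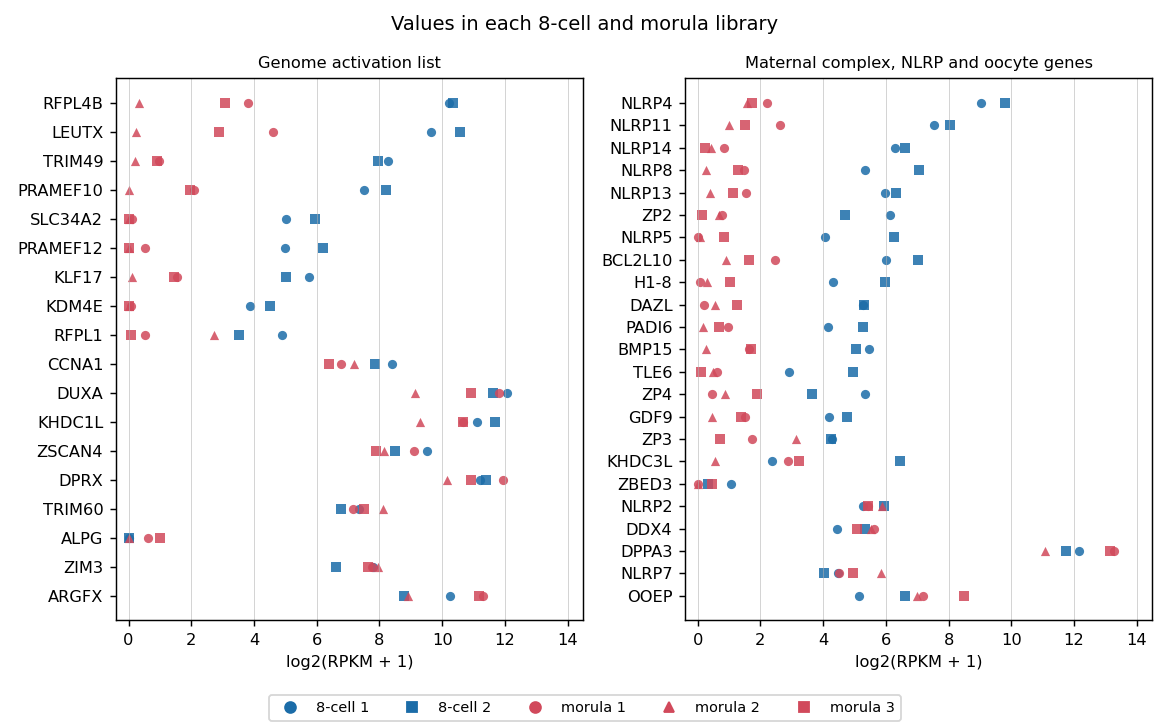
Level of each gene in each library as log2(RPKM + 1) on the x axis, with 8C libraries in blue and morulae in red (Mo replicate 2 as a triangle), for the tested members of the genome activation list (left) and for the maternal complex, NLRP and selected oocyte genes (right). RFPL4B to RFPL1 on the left and NLRP4 to GDF9 on the right show separate stages, whereas DUXA, DPRX, ARGFX, NLRP2 and DPPA3 show stages that overlap or lie close.

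Genes of the subcortical maternal complex, a protein assembly of the oocyte cortex, and the reproductive NLRP genes fell, with a few members kept. Of 13 tested, 8 fell (61.5%, beside 20.0% of all tested entries) and none rose, with a median of -4.11. The summed level of the list was 1028 and 1857 RPKM at 8C and 230, 246.5 and 451.9 at Mo. NLRP4 was 528 and 886 RPKM at 8C and 3.63, 1.94 and 2.32 at Mo (-7.59 ± 0.41, limma adjusted p = 2.13e-10). NLRP14 was 76.6 and 95.8 RPKM at 8C and 0.784, 0.333 and 0.173 at Mo (-5.94 ± 0.45, limma adjusted p = 1.69e-08). NLRP5, a core subunit of the complex, was 15.8 and 75.3 RPKM at 8C, listed at 0 in Mo replicate 1, and 0.0630 and 0.790 in the others. TLE6 and PADI6, both partners in the complex, also fell, as did NLRP8, NLRP11 and NLRP13.

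OOEP and NLRP2, by contrast, were present in every morula. OOEP, another core subunit, was 34.4 and 96.1 RPKM at 8C and 145, 127 and 363 at Mo, with no overlap (1.69 ± 0.67, limma adjusted p = 0.0708). It was called higher without Mo replicate 2 (limma adjusted p = 0.0389). NLRP2 was 37.8 and 61.1 RPKM at 8C and 42.1, 57.4 and 42.1 at Mo, with morulae inside the 8C range.

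The oocyte list, with secreted factors, zona pellucida proteins and germline genes, gave 15 lower and none higher of 24 tested, with a median of -3.19. The lower share was 62.5%, beside 20.0% of all tested entries. GDF9 (IMMRNTR2410), a growth factor that the oocyte secretes to its follicle, was 17.1 and 26 RPKM at 8C and 1.85, 0.365 and 1.62 at Mo (-3.35 ± 0.48, limma adjusted p = 3.24e-05). Its partner BMP15 was 43.1 and 32.4 RPKM at 8C and 2.12, 0.210 and 2.25 at Mo. DAZL, a germline RNA-binding protein, was 37.9 and 38.5 RPKM at 8C and 0.150, 0.457 and 1.39 at Mo (-4.63 ± 0.51, limma adjusted p = 1.65e-06). BCL2L10, an apoptosis regulator of the oocyte, was 63.2 and 129 RPKM at 8C and 4.49, 0.888 and 2.10 at Mo. H1-8, the oocyte linker histone, was 19.1 and 61.4 RPKM at 8C and 0.0580, 0.230 and 1.05 at Mo. All 5 genes had every morula below both 8C libraries.

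The coat protein gene ZP3 was 18.4 and 18.1 RPKM at 8C and 2.35, 7.77 and 0.624 at Mo (-2.41 ± 0.76, limma adjusted p = 0.0256). That call was lost without 8C replicate 1 (limma adjusted p = 0.102), without 8C replicate 2 (0.0981), without Mo replicate 3 (0.10) and after median-of-ratios scaling (0.0719). The germline helicase DDX4 was 20.7 and 39.7 RPKM at 8C and 48.6, 44.8 and 32.8 at Mo and was not called. DPPA3 (IMMRNTR2887), a maternal factor that guards DNA methylation, was 4599 and 3434 RPKM at 8C and 9943, 2158 and 9082 at Mo. Its log2 change was 0.54 ± 0.49 (limma adjusted p = 0.478), but 1.26 and called without Mo replicate 2 (limma adjusted p = 0.00259), and 1.10 and called after median-of-ratios scaling (limma adjusted p = 0.0364).

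In the list of genes that store and remove maternal mRNA, 14 of 41 tested members fell (34.1%, beside 20.0% of all tested entries) and 1 rose, with a median of -1.12. The count of lower members was 8 without 8C replicate 1, where 17.4% of all entries were lower, and 10 after median-of-ratios scaling, where 19.7% were, so in those settings the list was closer to the table as a whole. BTG4, the adaptor that brings the CCR4-NOT deadenylase to maternal mRNA, was 415 and 402 RPKM at 8C and 15.3, 3.37 and 27.3 at Mo (-5.02 ± 0.56, limma adjusted p = 2.20e-06). CNOT6L, a deadenylase subunit, was 15.7 and 16.6 RPKM at 8C and 0.438, 0.140 and 1.13 at Mo (-3.50 ± 0.45, limma adjusted p = 1.03e-05). PATL2, an oocyte repressor of translation, was 7.46 and 13.1 RPKM at 8C, 0.120 and 0.0630 in Mo replicates 1 and 2, and listed at 0 in replicate 3. ZFP36L2, which binds AU-rich elements and promotes decay, was the member that rose, from 4.01 and 0.998 RPKM to 9.27, 29.0 and 23.8, but not without 8C replicate 2.

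Among Ensembl entries with a symbol, several of the largest decreases belonged to copies of 1 gene. The genes of this paragraph and of those on the largest increases were named because their calls held without each library in turn and their stages did not overlap. That stability and separation are therefore no finding. Over all tested entries 10.6% fell and 1.9% rose with calls that held in this way, and every morula lay below both 8C libraries for 30.7% and above both for 8.25%. Of the 10 largest decreases by this rule, which leaves out IMMRNTR entries such as LEUTX, 4 were TRIM49 entries close together on chromosome 14, where near-identical copies can share reads. The entry at chr14:88517672-88526913 was 258 and 308 RPKM at 8C and 0.376, 0.0740 and 0.170 at Mo (-7.88 ± 0.54, limma adjusted p = 5.01e-09). MT1X (chr20:55041702-55043407), a metal-binding metallothionein, was 4039 and 9807 RPKM at 8C and 85.1, 13.9 and 52.2 at Mo (-7.27 ± 0.75, limma adjusted p = 8.24e-07). MT1X had averaged 20510 RPKM in germinal vesicle oocytes, 13010 in MII oocytes, 18100 at the 2-cell stage and 7519 at the 4-cell stage. In blastocysts it averaged 550.3. CMKLR2, a receptor of the chemokine-like peptide chemerin, was 206 and 328 RPKM at 8C and 0.183, 0.557 and 0.0710 at Mo. SH3BGRL, on the X chromosome, was 178 and 84.4 RPKM at 8C, 1.29 in Mo replicate 1 and listed at 0 in the others, and it averaged 75.4 RPKM in blastocysts. Chromosome positions are as deposited, and the file names no build.

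The 10 largest increases under the same rule shared no list. TMEM45A (chr2:20691337-20767151), which encodes a membrane protein, was 0.579 and 1.45 RPKM at 8C and 225, 275 and 591 at Mo (7.40 ± 0.66, limma adjusted p = 1.22e-07). EIF4E (chr5:91793454-91842245), the protein that binds the mRNA cap to start translation, was 10.4 and 12.0 RPKM at 8C and 697, 4295 and 758 at Mo (6.76 ± 0.97, limma adjusted p = 3.64e-05). Mo replicate 2 held the highest EIF4E value, and the log2 change without it was 5.91. EIF4E had averaged 177 RPKM at the 4-cell stage, so the 8C libraries were lower than the stages before and after.

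LDHB, a lactate dehydrogenase subunit with 4 entries in the table, was 14.6 and 125 RPKM at 8C and 2735, 1248 and 3670.3 at Mo for the entry ENSMMUG00000002679 (5.71 ± 0.87, limma adjusted p = 7.39e-05). PYROXD1, an oxidoreductase encoded near it on chromosome 11, was 0.0490 and 0.543 RPKM at 8C and 61.4, 65.6 and 34.0 at Mo. GSTO1, a glutathione transferase, was 2.95 and 0.578 RPKM at 8C and 57.1, 194 and 58.9 at Mo. SPTLC2, a subunit of the enzyme that starts sphingolipid synthesis, was 0.0620 and 0.113 RPKM at 8C and 32.4, 107 and 14.3 at Mo. RPL22L1, a paralogue of a ribosomal protein, was 60.8 and 7.12 RPKM at 8C and 1555, 242 and 1108 at Mo. DUSP11, NIPSNAP2 and CA13, an RNA phosphatase, a mitochondrial protein and a carbonic anhydrase, completed the 10.

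**Figure D3:**
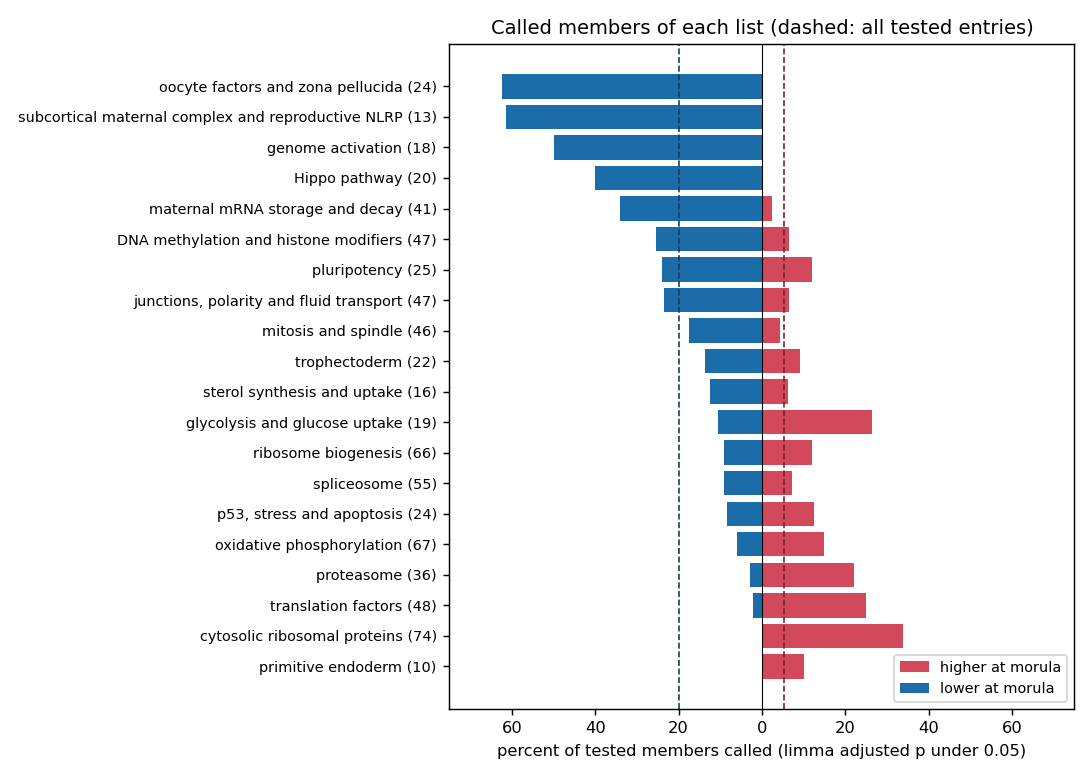
Percent of tested members of each list called higher (red, to the right) or lower (blue, to the left) at Mo, for lists with at least 10 tested members, with the number tested in brackets and dashed lines at the shares of all tested entries, 5.39% and 20.0%. Oocyte, maternal complex and activation lists reach 50.0% to 62.5% lower, and cytosolic ribosomal proteins reach 33.8% higher with none lower.

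Genes of the cytosolic ribosome were higher in sum in 2 morulae and not in the other. With all libraries 25 of 74 tested members rose (33.8%, beside 5.39% of all tested entries) and none fell, with a median of 1.29. Without Mo replicate 2, where 7.99% of all entries were higher, 53 rose and RPS2 fell, with a median of 1.89. The summed level of the list was 30360.0 and 29570.0 RPKM at 8C, 90280.0 and 122100.0 in Mo replicates 1 and 3, and 27550.0 in Mo replicate 2. Member by member, Mo replicates 1 and 3 exceeded both 8C libraries for 66 (89.2%) and 67 (90.5%) of the 74, and Mo replicate 2 for 25 (33.8%). Below both lay 2, 2 and 30 members in Mo replicates 1, 3 and 2. Over all tested entries 26.2%, 24.3% and 18.3% lay above both 8C libraries in Mo replicates 1, 3 and 2. The shares below both were 39.6%, 41.7% and 52.4%. The count with all libraries also moved with the setting, to 44 higher after median-of-ratios scaling and to 4 in the fit of the 2 stages alone. In those settings 8.79% and 0.615% of all tested entries were higher. The count was 18 or 19 without Mo replicate 1 or Mo replicate 3, where 5.62% and 5.12% of all tested entries were higher. Without 8C replicate 1 or 8C replicate 2 the count was also smaller, as was the share of all tested entries.

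The ribosomal genes named by smallest p were among those raised in all 3 morulae. RPL10A was 99.2 and 97.5 RPKM at 8C and 584, 384 and 646 at Mo (2.41 ± 0.37, limma adjusted p = 8.86e-05). RPL19 was 208 and 167 RPKM at 8C and 1313, 997 and 1874 at Mo (2.85 ± 0.46, limma adjusted p = 0.000118). In both genes Mo replicate 2 lay between the 8C libraries and the other morulae. Ribosomal protein genes have many near-identical pseudogene copies, and reads could be split between them.

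Translation factors gave 12 higher (25.0%) and 1 lower (2.08%) of 48 tested, beside 5.39% and 20.0% of all tested entries, with a median of 0.59. Their summed level was 4401 and 3851 RPKM at 8C and 8050.0, 12160.0 and 11200.0 at Mo, and EIF4E made up 4295 RPKM of the sum in Mo replicate 2. Member by member, Mo replicates 1, 2 and 3 lay above both 8C libraries for 30 (62.5%), 25 (52.1%) and 30 (62.5%) of the 48. They lay below both for 7 (14.6%), 18 (37.5%) and 8 (16.7%). Over all tested entries 26.2%, 18.3% and 24.3% lay above both, and 39.6%, 52.4% and 41.7% below both. Fewer members were called higher without 8C replicate 2, where the higher share of all tested entries was smaller too. EIF3E, a subunit of the initiation factor eIF3, was 39.5 and 54.2 RPKM at 8C and 435, 198 and 435 at Mo (2.83 ± 0.41, limma adjusted p = 3.74e-05). EIF2S1, a subunit of the factor that delivers the initiator tRNA, was 25.4 and 18.4 RPKM at 8C and 194, 139.9 and 168 at Mo. EEF1A1, the main elongation factor, was 1171 and 989 RPKM at 8C and 2607, 3083 and 5082 at Mo, a call lost without 8C replicate 2.

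Ribosome biogenesis genes moved in both directions, with 8 higher (12.1%) and 6 lower (9.09%) of 66 tested and a median of 0.09. Of all tested entries 5.39% were higher and 20.0% lower. Fewer were higher without 8C replicate 2, where the higher share of all tested entries was smaller too. After median-of-ratios scaling 16 were higher, where 8.79% of all tested entries were. MRTO4, which helps to assemble the large subunit, was 4.83 and 10.03 RPKM at 8C and 60.9, 89.6 and 58.4 at Mo (3.11 ± 0.49, limma adjusted p = 0.000107). DDX10, a helicase of small subunit assembly, was 155 and 194 RPKM at 8C and 24.8, 46.5 and 24.5 at Mo (-2.47 ± 0.38, limma adjusted p = 8.09e-05). The spliceosome list gave 4 higher (7.27%) and 5 lower (9.09%) of 55, beside the same shares of all tested entries. LSM6, part of the ring that binds U6 RNA, was 20.3 and 15.6 RPKM at 8C and 62.0, 108 and 69.3 at Mo. PRPF31, a factor of the tri-snRNP, was 31.3 and 15.9 RPKM at 8C and 0.982, 0.0460 and 1.23 at Mo. After median-of-ratios scaling the spliceosome split was 9 higher and 2 lower, where 8.79% of all tested entries were higher and 19.7% lower.

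**Figure D4:**
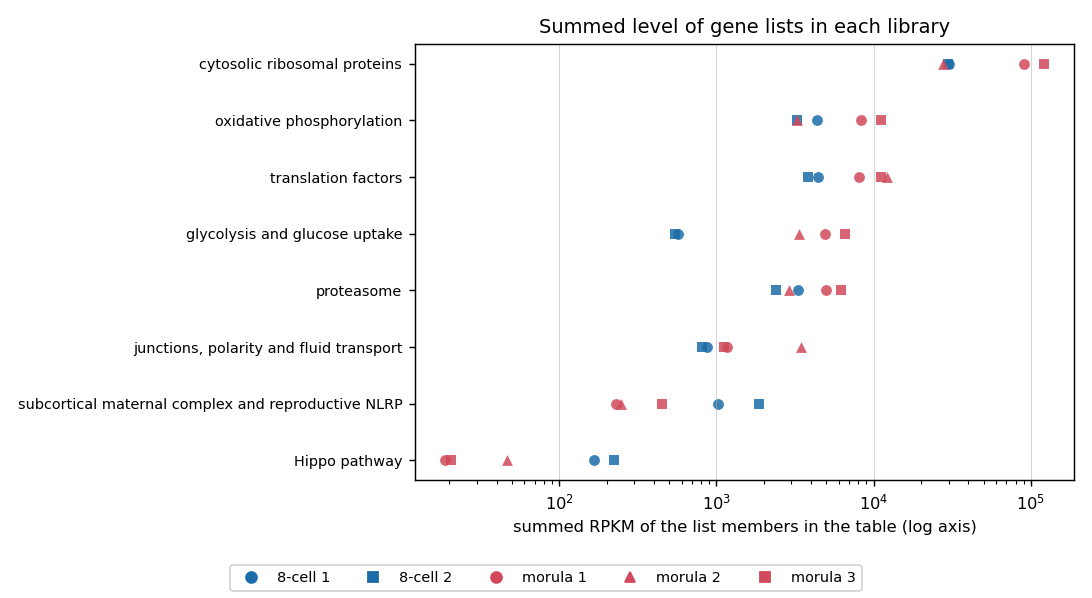
Summed RPKM of 8 gene lists in each library on a log x axis, with 8C libraries in blue and morulae in red (Mo replicate 2 as a triangle). Mo replicate 2 lies with the 8C libraries for ribosomal proteins, oxidative phosphorylation and proteasome, and with the other morulae for glycolysis, the maternal complex and translation factors, where EIF4E alone gives 4295 RPKM.

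Nuclear genes of oxidative phosphorylation showed the same dependence on Mo replicate 2. With all libraries 10 of 67 rose (14.9%) and 4 fell (5.97%), beside 5.39% and 20.0% of all tested entries, with a median of 0.66. Without Mo replicate 2, 29 rose and 2 fell, with a median of 1.27, whereas without 8C replicate 2 only 3 rose and without Mo replicate 3 only 6. The count was 16 after median-of-ratios scaling and 1 in the fit of the 2 stages alone. The higher share of all tested entries moved with these settings too. It was 7.99% without Mo replicate 2, 5.12% without Mo replicate 3, 8.79% after scaling and 0.615% in the fit of the 2 stages alone. UQCRB, a subunit of complex III, was 2.31 and 1.99 RPKM at 8C and 17.7, 11.7 and 28.5 at Mo (2.61 ± 0.45, limma adjusted p = 0.000236). SDHD, the membrane anchor of complex II, was 7.56 and 14.3 RPKM at 8C and 69.8, 61 and 133 at Mo (2.87 ± 0.60, limma adjusted p = 0.0015). Mo replicate 2 exceeded both 8C libraries for 18 members of the list (26.9%), against 42 (62.7%) and 53 (79.1%) for Mo replicates 1 and 3. Below both lay 33 members in Mo replicate 2, and 11 and 6 in Mo replicates 1 and 3. Over all tested entries 18.3%, 26.2% and 24.3% lay above both in Mo replicates 2, 1 and 3. The shares below both were 52.4%, 39.6% and 41.7%.

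Glycolysis and glucose uptake genes were higher in all 3 morulae in sum, at 565.7 and 541.9 RPKM at 8C and 4885, 3352 and 6581 at Mo. Lactate dehydrogenases gave much of the sum at Mo and a smaller part of it at 8C. Of 19 tested 5 rose (26.3%) and 2 fell (10.5%), beside 5.39% and 20.0% of all tested entries, with a median of 1.24. LDHA was 68.1 and 64.0 RPKM at 8C and 1377, 571 and 1552 at Mo (4.00 ± 0.57, limma adjusted p = 3.74e-05). ENO2, an enolase, was 0.277 and 0.153 RPKM at 8C and 6.93, 6.98 and 5.22 at Mo (2.59 ± 0.22, limma adjusted p = 6.80e-08). HK2, a hexokinase, was 5.6 and 6.54 RPKM at 8C and 23.8, 96.4 and 21.8 at Mo, and HK1 was called higher too, but not without 8C replicate 1. PFKP, a phosphofructokinase subunit, went the other way, from 13.8 and 16.6 RPKM to 0.979, 0.0530 and 1.39 (-3.24 ± 0.56, limma adjusted p = 0.000274). PDK1, a kinase that holds pyruvate dehydrogenase inactive, was the other member called lower, but not without 8C replicate 1.

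Proteasome subunits gave 8 higher and 1 lower of 36, with a median of 0.47, but no call of this list held without each library in turn. Fewer were higher without either 8C library, where the higher share of all tested entries was smaller too. PSMC3, an ATPase of the regulatory particle, was 3.08 and 6.63 RPKM at 8C and 50.8, 8.94 and 86.6 at Mo (limma adjusted p = 0.0101, or 0.101 without 8C replicate 1). For the proteasome list the shares were 22.2% higher and 2.78% lower, beside 5.39% and 20.0% of all tested entries. Sterol genes gave 1 higher (6.25%) and 2 lower (12.5%) of 16. CYP51A1 (IMMRNTR4160), the lanosterol demethylase, was 1.73 and 1.67 RPKM at 8C and 6.02, 54.1 and 9.07 at Mo, and FDFT1, the squalene synthase, was 16.7 and 21.6 at 8C and 3.30, 0.219 and 4.52 at Mo.

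Of 25 tested pluripotency genes 3 were higher (12.0%) and 6 lower (24.0%), beside 5.39% and 20.0% of all tested entries, with a median of -0.03. Without Mo replicate 2 there were 4 in each direction, where 7.99% of all tested entries were higher and 18.0% lower. NANOG, a homeobox factor of the inner cell mass, was 17.4 and 5.77 RPKM at 8C and 144, 107 and 101 at Mo (3.39 ± 0.61, limma adjusted p = 0.000380). DNMT3L, a cofactor of de novo DNA methylation, was listed at 0 in 8C replicate 1 and at 0.521 RPKM in replicate 2, and was 23.0, 14.7 and 33.8 at Mo (4.26 ± 0.43, limma adjusted p = 5.71e-07). IFITM1, an interferon-induced membrane protein, was 0.768 and 11.5 RPKM at 8C and 170.3, 19.0 and 115 at Mo. In these 3 genes every morula lay above both 8C libraries.

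The pluripotency members called lower were SALL4, KLF2, GDF3, LEFTY2, ETV4 and ETV5. The ETV4 call was lost without each of the 5 libraries in turn, that of ETV5 without 8C replicate 1, Mo replicate 1 or Mo replicate 2, and that of KLF2 without 8C replicate 2. SALL4, a zinc finger factor, was 28.0 and 19.1 RPKM at 8C, 4.13 and 4.51 in Mo replicates 1 and 3 and listed at 0 in replicate 2. LEFTY2, a Nodal antagonist, was 1.31 and 1.57 RPKM at 8C and listed at 0 in all morulae. POU5F1 was 4.52 and 6.92 RPKM at 8C and 5.10, 43.9 and 9.48 at Mo, and was not called. Its log2 change of 1.10 was 0.27 without Mo replicate 2. KLF4 was 55.7 and 48.7 RPKM at 8C and 27.5, 113 and 63.1 at Mo. TFCP2L1 was listed at 0 in all 5 libraries and was not among the tested entries.

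Of 22 tested trophectoderm genes 2 rose (9.09%) and 3 fell (13.6%), with a median of -0.46, shares not far from the 5.39% and 20.0% of all tested entries. KRT19, a simple epithelial keratin, was 0.0350 and 0.128 RPKM at 8C and 2.03, 20.3 and 8.77 at Mo (2.99 ± 0.58, limma adjusted p = 0.000754). KRT18 was 2.74 and 1.81 RPKM at 8C and 6.79, 69.2 and 3.96 at Mo (2.11 ± 0.73, limma adjusted p = 0.0405). The KRT18 call was lost without 8C replicate 1 (limma adjusted p = 0.0953), 8C replicate 2 (0.178) or Mo replicate 2 (0.137), and Mo replicate 2 held the highest value of both keratins.

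No transcription factor of the list was called higher. GATA3 was 1.39 and 0.326 RPKM at 8C and 0.918, 0 and 0.0420 at Mo, while it averaged 18.6 RPKM in blastocysts. TFAP2C was 68.2 and 35.4 RPKM at 8C and 32.6, 111 and 22.5 at Mo, with a log2 change of -0.17 that turned to 0.38 after median-of-ratios scaling. CGA, the shared subunit of glycoprotein hormones, was 73.9 and 33.7 RPKM at 8C, 1.91 in Mo replicate 1 and listed at 0 in the others (-5.16 ± 0.43, limma adjusted p = 5.6e-08). GRHL1 fell as well, and TFAP2A was called lower (limma adjusted p = 0.0494) but not without 8C replicate 2, Mo replicate 2 or Mo replicate 3. In the primitive endoderm list 1 member was called higher and none lower of 10 tested, beside 5.39% and 20.0% of all tested entries. The called member, HNF4A, was 0.0100 and 0 RPKM at 8C and 9.19, 44.8 and 8.61 at Mo (4.04 ± 0.50, limma adjusted p = 7.37e-06). GATA6 and PDGFRA were not called and their stages overlapped, and GATA4 and SOX17 were not among the tested entries.

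Hippo pathway genes, which read cell position in the morula, gave 8 lower (40.0%, beside 20.0% of all tested entries) and none higher of 20 tested, with a median of -0.67. YAP1, the coactivator that the pathway restrains, was 25.8 and 30.5 RPKM at 8C and 3.75, 13.3 and 3.48 at Mo (-2.11 ± 0.52, limma adjusted p = 0.00503, or 0.0533 after median-of-ratios scaling). STK4, a kinase of the cascade, was 3.93 and 8.87 RPKM at 8C, 0.268 and 0.638 in Mo replicates 1 and 3 and listed at 0 in replicate 2. FRMD6 and TEAD2 fell as well. STK3 was called lower but not without 8C replicate 2, and SAV1 and MOB1B were called lower but not without 8C replicate 1. The entry named TEAD1 (IMMRNTR2557) was 97.8 and 149 RPKM at 8C and 1.28, 0.588 and 1.96 at Mo. It lies on chromosome 6 in the file, whereas the Ensembl entry TEAD1 (ENSMMUG00000010875) lies on chromosome 14 and was under 10 RPKM in all 5 libraries, so that call cannot be assigned to TEAD1 with certainty.

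Junction, polarity and fluid transport genes, those of compaction and later cavity formation, gave 3 higher (6.38%) and 11 lower (23.4%) of 47, near the 5.39% and 20.0% of all tested entries, with a median of -0.18. The lower count was smaller without 8C replicate 2, as was the lower share of all tested entries. RDX, which links actin to the apical membrane, was 32.2 and 34.8 RPKM at 8C and 198, 1682 and 209 at Mo (3.58 ± 0.71, limma adjusted p = 0.000886). PALS1, a scaffold of the Crumbs polarity complex, was 2.86 and 5.39 RPKM at 8C and 20.9, 90.9 and 23.5 at Mo (2.88 ± 0.54, limma adjusted p = 0.000527). Both were highest in Mo replicate 2 and separate from 8C in the other morulae too.

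Other polarity genes of the list were lower or not called. PARD3, a PAR polarity scaffold, was 13.0 and 18.6 RPKM at 8C and 1.57, 0.0430 and 2.46 at Mo (-2.98 ± 0.52, limma adjusted p = 0.000259), and PARD3B was called lower too. PARD6B and PARD6G were called lower, but not without 8C replicate 2 and 8C replicate 1, respectively. PARD6A (IMMRNTR2387), under a file name that could not be checked, was called lower, but not without 8C replicate 2. PRKCI, PRKCZ and CDC42, known partners of PAR proteins, were not called. MYH10 (IMMRNTR3230), the entry for a non-muscle myosin heavy chain, was 48.6 and 36.2 RPKM at 8C and 0.0970, 0.0770 and 0.220 at Mo, and is 1 of 3 entries of that name on chromosome 16. CDH1, the E-cadherin of compaction, was 3.26 and 1.26 RPKM at 8C and 0.0990, 0 and 0.0560 at Mo (-1.56 ± 0.67, limma adjusted p = 0.0969). ATP1B1, a sodium pump subunit, was 6.41 and 16.6 RPKM at 8C and 0.567, 0.355 and 3.55 at Mo (-2.42 ± 0.66, limma adjusted p = 0.0104), a call lost without 8C replicate 2 (limma adjusted p = 0.137).

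Among enzymes of DNA methylation and histone modification 12 fell (25.5%) and 3 rose (6.38%) of 47, near the 20.0% and 5.39% of all tested entries, with a median of -0.72. DNMT1, the maintenance methyltransferase, was 157 and 273 RPKM at 8C and 3.38, 8.04 and 3.16 at Mo (-5.25 ± 0.42, limma adjusted p = 3.64e-08). KDM1B, a histone H3 lysine 4 demethylase of the oocyte, was 95.6 and 75.5 RPKM at 8C and 1.60, 0.616 and 2.17 at Mo (-5.18 ± 0.58, limma adjusted p = 2.12e-06). KDM1A was 56.3 and 105 RPKM at 8C and 10.2, 0.0160 and 5.75 at Mo, and TET2 was 10.7 and 8.99 at 8C, 0.441 and 0.0410 in Mo replicates 1 and 3 and listed at 0 in replicate 2. DNMT3A, a de novo methyltransferase, was called higher, a call that was also lost without either 8C library. It was 2.02 and 2.14 RPKM at 8C and 5.45, 280.4 and 7.96 at Mo (limma adjusted p = 0.0465, or 0.151 without Mo replicate 2). KDM4C and HDAC2 were the other calls upward, that of HDAC2 lost without 8C replicate 2 or Mo replicate 2. The lower count was smaller without 8C replicate 1, as was the lower share of all tested entries.

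Mitotic genes gave 2 higher (4.35%) and 8 lower (17.4%) of 46, near the shares of all tested entries, with a median of -0.11. Without Mo replicate 2, 6 rose, where 7.99% of all tested entries were higher. After median-of-ratios scaling 8 rose and 7 fell, where 8.79% of all tested entries were higher and 19.7% lower. The count of higher members thus moved with the setting, as did the share of all tested entries. CDK1, the mitotic kinase, was 124 and 108 RPKM at 8C and 698, 671 and 696 at Mo (2.56 ± 0.66, limma adjusted p = 0.00707). PTTG1, securin, was 6612 and 4917 RPKM at 8C and 1035, 62.4 and 984 at Mo (-3.83 ± 0.76, limma adjusted p = 0.000979). BUB1B, a checkpoint kinase, was 26.7 and 60.8 RPKM at 8C and 7.16, 0.0810 and 0.924 at Mo. CCNB3, a cyclin known from meiosis, was 13.7 and 5.97 RPKM at 8C and 1.5, 0.190 and 0.109 at Mo. AURKA and the germ cell kinase AURKC also fell.

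In the stress and apoptosis list 3 of 24 rose (12.5%) and 2 fell (8.33%), beside 5.39% and 20.0% of all tested entries. HSPD1, the mitochondrial chaperonin, was 14.9 and 27.8 RPKM at 8C and 97.4, 481 and 161 at Mo (3.21 ± 0.55, limma adjusted p = 0.000251). The entry HSP90AA1 (IMMRNTR97), with an unchecked name, was 8.06 and 2.01 RPKM at 8C, listed at 0 in Mo replicates 1 and 2, and 0.681 in replicate 3. SESN1, a p53 target, was the other that fell.

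Summed levels of markers of other cells were low, and highest for the sperm markers at 8C. The 14 granulosa and cumulus markers summed to 6.18 and 6.45 RPKM at 8C and 1.23, 0.200 and 6.53 at Mo, and neither of the 2 tested was called. CYP11A1, a steroidogenic enzyme, was listed at 0 in 8C replicate 1, at 5.58 RPKM in 8C replicate 2, and at 1.12, 0.0410 and 6.34 at Mo. The 6 sperm markers summed to 10.9 and 45.2 RPKM at 8C and 0 in all morulae. TNP1, a protein that packs sperm DNA, was the 1 tested and fell (5.43 and 45.2 RPKM at 8C). In 8C replicate 1 the rest of the sum came from untested sperm markers. The 4 blood markers in the table summed to 0.160 and 9.11 RPKM at 8C and 0.932, 0 and 0 at Mo, and HBA, the 1 tested, was not called. The only entry of the Y chromosome list, ZFY (IMMRNTR4791), lies on the X chromosome in the file and was not used. The part of such cells in the other results was not tested.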

How the data were processed

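Single macaque oocytes and embryos were lysed whole, and per the labels' protocols cDNA synthesis used SMARTer Ultra Low Input chemistry, primed on poly(A) tails, before a TruSeq DNA library kit. The values are RPKM, as the authors deposited them, for 35468 entries (28595 ENSMMUG, 6873 IMMRNTR) in 22 columns, each matched to its sample by title. Per the submitters' processing notes the build is Mmul 8.0.1, but the file names none, so its positions are printed unchanged. The read aligner, the counting method and the annotation are not given in the sources used here. RPKM is relative, so a change in abundant genes moves all others. Symbols came from a gene name table (15556 entries), otherwise from the file. Names of IMMRNTR entries could not be checked and are printed with their identifier. Depth was estimated from low values of entries spanning under 200 bp, where 399 of 417 (95.7%) were whole multiples of 1 read within 0.05.

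The test was limma 3.58.1 (R 4.3.3), fitted to log2(RPKM + 1) of all 22 libraries with stage as the factor, 13 residual degrees of freedom, trended and robust empirical Bayes, 2-sided, Benjamini-Hochberg over 14312 entries (12060 ENSMMUG, 2252 IMMRNTR) with at least 1 RPKM in 2 libraries. Lists are described by counts and medians, without a test. The 24 lists and all members were chosen with earlier results of these data known. A list takes 1 entry per symbol. Named genes were ENSMMUG entries with a symbol, called with all libraries and without each 8C or Mo library, not overlapping, with at least 10 RPKM in the higher stage, 10 in each direction. Added to these were up to 2 called members of each list with the smallest adjusted p, then 20 panel genes. Other list members with values were picked for their role after values were seen. Replicate numbers did not pair the libraries (correlations of deviations from -0.032 to 0.032). In simulated data with 200 changed entries of 14312, 0%, 38.5% and 75.5% of changes of 1, 2 and 3 log2 units were recovered, so an uncalled gene can have changed. The simulation changed a far smaller share than the 25.4% called in the data, and its values had no floor at 0. Its rates therefore need not hold for the real comparison. Alternatives were another pseudocount, other filters, median-of-ratios scaling (5405 reference entries), a fit of the 2 stages alone, a replicate block and each library left out. Python 3.11.15, numpy 2.4.6, pandas 2.3.3 and matplotlib 3.10.9 were used.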

Additional observations from a re-analysis of the deposited data

How the results depend on the processing

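With a pseudocount of 0.1 RPKM 691 entries were higher and 3201 lower, and the median log2 change was -0.95. With no filter the counts were 692 and 3510 and the median -0.04, and with a filter of 5 RPKM 758 and 2190 and -0.54. Median-of-ratios scaling gave 1258 higher, 2813 lower and -0.25, and raised the share of calls that were higher from 21.2% to 30.9%. The fit of the 8C and Mo libraries alone gave 88 higher and 1159 lower, with 3 residual degrees of freedom. Both of the following were added after the data were seen. In that fit, limma called 0 higher and 0 lower over the 13612 entries above 0 in these libraries, where 3227 had an unadjusted p under 0.05. Over the 9264 entries with 1 RPKM or more in 2 of them it called 128 higher and 1443 lower, with a median of -0.62. The replicate number as a block gave 709 higher and 2830 lower. Leaving out 1 library in turn gave 442 to 1143 higher, 2485 to 2948 lower and a median of -0.48 to -0.18. The lowest count of higher entries came without 8C replicate 2, the shallowest library, and the highest without Mo replicate 2, where the share of higher calls was 30.8%. Without 1 of the 8C libraries the lone library is assumed to vary like the other stages. The cause of these moves was not tested.

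Of the named genes only CYP11A1, HBA and TFAP2C, none of them called, changed sign. CYP11A1 turned from -0.02 (-1.38 without 8C replicate 1) to 0.46 with a pseudocount of 0.1, 0.12 after scaling, 1.34 without 8C replicate 2, 0.11 without Mo replicate 1 and 0.62 without Mo replicate 2. HBA turned from -1.01 (-2.12 without 8C replicate 1) to 0.10 without 8C replicate 2. TFAP2C turned from -0.17 (-0.84 without Mo replicate 2) to 0.38 after scaling, 0.00 with the block, 0.29 without 8C replicate 1, 0.03 without Mo replicate 1 and 0.29 without Mo replicate 3. A planned description of promoter motifs was not run.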
